A study of Mus musculus with 7 samples.

Results

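The genes described here form the matriptase and prostasin axis of the mouse endometrial epithelium. They are 5 trypsin-like serine proteases (St14, Prss8, Prss22, Tmprss2 and Tmprss4), 2 Kunitz-type inhibitors (Spint1 and Spint2) and the cell surface adhesion molecule Epcam. These 8 genes were chosen by name, as proteases, their inhibitors and a substrate, with earlier results of these data known. All 8 were among the 14610 genes tested of 53379 in the count tables.

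RNA was sequenced from epithelial cells of the uterine lining of CD-1 mice, isolated magnetically with an antibody against EPCAM. The 4 mutant libraries each came from 1 mouse aged 120 days with the genotype LtfCre0/+; Brg1 fl/fl, in which Cre recombinase driven by the lactoferrin gene Ltf acts on floxed Brg1 (Smarca4), which encodes an ATP-driven motor of SWI/SNF chromatin remodelling. Wild-type CD-1 mice, pooled within each library, gave the 3 control libraries, which were reused from an older data set and carry no stated age. Since mutants and controls were prepared as separate library sets, genotype, library set and pooling of mice cannot be told apart in any difference below. Whether the ages differed cannot be checked, so age cannot be told apart from these either.

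Matriptase (St14) is a transmembrane protease of epithelial cells, and prostasin (Prss8) is a related protease held in the membrane by a lipid anchor. Each can activate the other, and the Kunitz inhibitors HAI-1 (Spint1) and HAI-2 (Spint2) restrain both. Their known substrates include EPCAM, the receptor PAR2, the epithelial sodium channel and the zymogens of urokinase and hepatocyte growth factor. EPCAM in turn binds and stabilises claudins of the tight junction, chiefly claudin-7. In mice, loss of HAI-1 or HAI-2 damages the placenta or the gut lining through unrestrained matriptase, and in the intestine matriptase cleaves EPCAM when HAI-2 is lacking.

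Of the 8 genes, 2 fell in the mutants and none rose. These were the inhibitor gene Spint1, with a 2.70-fold lower level, and the protease gene Prss8, with a 2.11-fold lower level (quasi-likelihood test of edgeR, adjusted over all 14610 genes with a threshold of 0.05). Among all tested genes 6.18% were called lower, 5.37% higher and 11.5% in either direction. The log2 fold change of mutant against control was below 0 for all 8 genes, except that Prss22 turned to 0.14 with total count scaling, with a median of −0.72, against a median of 0.06 over all tested genes. A fall of this kind was not particular to the 8 genes. The 7 general epithelial markers described below were all below 0 too, with a median of −0.91. Levels are given as CPM, reads per 1000000 after scaling the libraries with the TMM method. In these units the highest mutant library lay below the lowest control library for 5 of the 8 genes (St14, Prss8, Spint1, Spint2 and Epcam), and for 16.1% of all tested genes, while 31.5% were free of overlap in either direction. With reads per 1000000 gene reads and no further scaling this held only for Prss8 and Spint1 of the 8 genes, and for 8.55% of all tested genes. The median fold change of all genes moved from 0.06 to 0.20 with upper-quartile and to 0.41 with total count scaling, so every change is given relative to the TMM scaling.

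**Figure D1:**
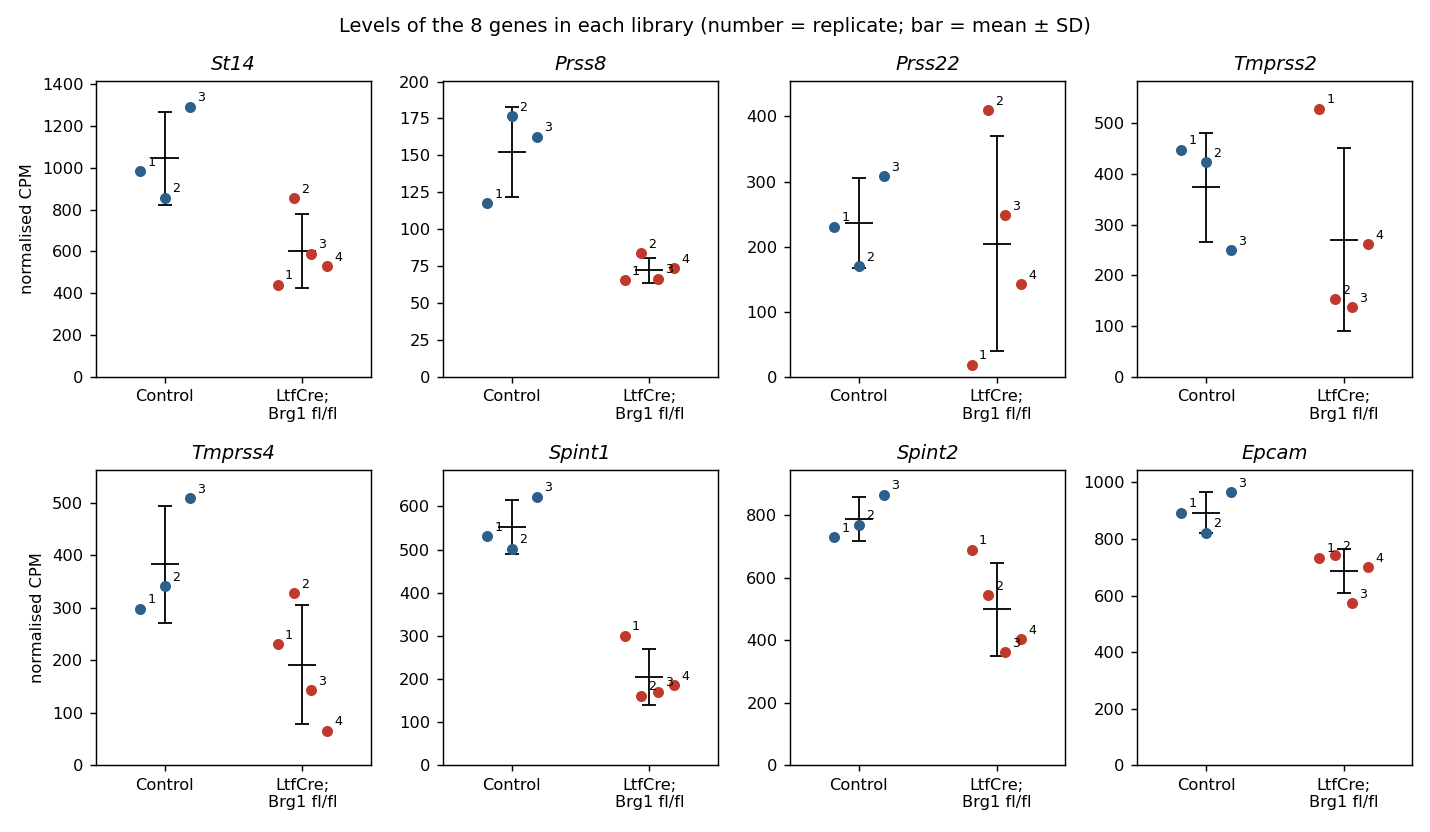
Level of each gene in normalised CPM (vertical axes, linear, from 0) in the 3 control (blue) and 4 mutant (red) libraries; numbers are replicates, and the bar is the mean with its SD. Spint1 lay at 162 to 301 CPM in the mutants and 502 to 622 CPM in the controls, and Prss22 ranged from 18.4 to 409 CPM among the mutants.

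Mutant libraries held 12436971 to 13364080 gene reads and control libraries 21372036 to 25862245, and each of the 8 genes had at least 235 reads in each library. The targeted gene Smarca4 ranged over 56.7 to 105.4 CPM among mutants and over 245 to 279 CPM among controls. Ltf, whose regulatory sequence drives Cre, stood at 82.7 CPM in mutant replicate 1, at 1146 to 2023 CPM in the other mutants and at 2940 to 3687 CPM in controls. Across genes, the log2 levels of mutant replicates 2 to 4 correlated at 0.893 to 0.961 with each other. Mutant replicate 1 stood apart from mutant replicates 2 and 3 (0.811 and 0.825) and less so from mutant replicate 4 (0.887). With the controls it correlated at 0.861 to 0.89. The summed level of 6 gland markers (Foxa2, Sox9, Prss28, Prss29, Spink1 and Cxcl15) was 13512 CPM in mutant replicate 1, 119 to 227 CPM in the other mutants and 9844 to 50240 CPM in controls. In bulk RNA, fewer cells of a type and less RNA per cell cannot be told apart.

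Spint1, which encodes the transmembrane Kunitz inhibitor HAI-1, showed the largest change of the 8 genes with all libraries in the fit. It is encoded on the plus strand of chr2:119237362-119249527 (GRCm38, ENSMUSG00000027315.13), and no exon of another gene overlaps its exons on that strand. Mutant replicates 1 to 4 measured 301, 162, 170.3 and 185 CPM, and control replicates 1 to 3 measured 531, 502 and 622 CPM. Mutant replicate 1 was the highest mutant, and the groups did not overlap. The mean fell from 552 ± 62.6 CPM (SD, n = 3) to 204 ± 64.8 CPM (SD, n = 4), which is −1.43 ± 0.26 (SE) on the log2 scale (edgeR adjusted p = 0.0186).

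Spint2 encodes HAI-2, the second Kunitz inhibitor of these proteases, and lies on the minus strand of chr7:29256323-29281912. In mutant replicates 1 to 4 it reached 689, 544.5, 362 and 403 CPM, compared with 728, 769 and 866 CPM for the controls. The groups did not overlap, but mutant replicate 1 came close to the lowest control. Its change of −0.66 ± 0.26 SE (log2) was closer to 0 than that of Spint1 and did not pass the test (edgeR adjusted p = 0.135). It passed without mutant replicate 1 (−0.81, edgeR adjusted p = 0.0254). In that fit 14% of all tested genes were called lower, against 6.18% with every library.

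The sequences before the transcription starts of both inhibitor genes are shown because Spint1 fell and Spint2 did not pass, although the difference between their changes was not tested. Each covers the 250 bases upstream of the RefSeq start (GRCm38.p6), 5′ to 3′ on the gene's own strand, with capitals marking GC boxes (GGGCGG or its reverse complement CCGCCC). The Spint1 sequence is chr2:119237110-119237359 on the plus strand and the Spint2 sequence chr7:29281978-29282227 on the minus strand.
Spint1: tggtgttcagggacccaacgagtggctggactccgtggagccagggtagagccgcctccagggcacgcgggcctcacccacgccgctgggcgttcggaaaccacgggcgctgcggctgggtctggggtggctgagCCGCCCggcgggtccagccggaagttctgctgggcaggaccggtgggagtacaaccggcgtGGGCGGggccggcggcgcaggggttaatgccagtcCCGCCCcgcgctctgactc
Spint2: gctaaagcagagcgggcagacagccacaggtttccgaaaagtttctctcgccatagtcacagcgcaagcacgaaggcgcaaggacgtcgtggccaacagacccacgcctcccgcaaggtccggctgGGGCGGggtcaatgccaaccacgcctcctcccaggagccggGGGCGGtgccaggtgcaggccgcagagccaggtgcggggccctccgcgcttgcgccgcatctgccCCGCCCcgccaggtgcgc
Both stretches held 3 GC boxes, and their GC contents were 72.8% for Spint1 and 69.6% for Spint2. At least 1 GC box was found in 32.7% of the 32851 RefSeq mouse promoters over the same 250 bases. Over windows of 300 bases, the GC content of Spint1 exceeded that of 89.9% of these promoters and that of Spint2 89.5%. The share with GC boxes among promoters equally rich in GC was not taken. The corresponding stretch of Epcam held 1 GC box at a GC content of 56.4%, and that of Tmprss2 held none at 61.6%. On both strands 2 further motifs were searched, the grainyhead palindrome AACCGGTT, in 0.116% of all promoters, and the AP-1 motif TGANTCA, in 6.75%. Neither set of letters occurs in these windows of Spint1, Spint2, Epcam or Tmprss2. A match or its lack describes the letters of the window only.

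Prss8 encodes prostasin and lies on the minus strand of chr7:127925716-127930104 (ENSMUSG00000030800.10). Mutant replicates 1 to 4 had 65.4, 83.7, 66.4 and 73.6 CPM, whereas the controls had 118, 177 and 163 CPM. All mutants lay within a narrow band below every control. The mean fell from 152 ± 30.8 CPM (SD, n = 3) to 72.3 ± 8.44 CPM (SD, n = 4), which is −1.08 ± 0.19 (SE) on the log2 scale (edgeR adjusted p = 0.0192). The SD of its log2 level among mutants was 0.16, smaller than the median of 0.52 over all tested genes.

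The calls for Spint1 and Prss8 rested on all control libraries being present. Without control replicates 1, 2 and 3, the adjusted p was 0.0848, 0.0790 and 0.0949 for Spint1 and 0.0606, 0.0998 and 0.102 for Prss8 (edgeR), and without mutant replicate 3 it was 0.0540 and 0.0563. The size of the change (log2) stayed between −1.63 and −1.31 for Spint1 and between −1.21 and −0.91 for Prss8 over the 7 removals. Over all genes, 11.5% were called with every library and 0.878%, 1.11% and 0.902% without control replicates 1, 2 and 3.

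St14 encodes matriptase itself and lies on the minus strand of chr9:31089402-31131853. Mutant replicates 1 to 4 gave 441, 854, 589 and 529 CPM, and the controls gave 985, 857 and 1292 CPM. Mutant replicate 2 lay just under control replicate 2, and the others lay well below. The log2 fold change of −0.79 ± 0.28 SE did not pass edgeR (edgeR adjusted p = 0.105), while DESeq2 on the same counts called it at the same size (adjusted p = 0.0441). DESeq2 called 23.4% of all tested genes, against 11.5% with edgeR. In the authors' deposited table St14 had a log2 fold change of −0.78 with an adjusted p of 0.0476. Spint1 and Prss8 had an adjusted p under 0.05 there (3.27e-06 and 0.0043), and the other 5 genes of the 8 did not. The share of all genes under that threshold in the authors' comparison is not given here. Their comparison is of the same 2 groups and is no independent evidence.

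Tmprss4, a further transmembrane serine protease of epithelia, lies on chr9:45172726-45204092. Mutant replicates 1 to 4 contained 231, 328, 143 and 65.9 CPM, and the controls 298, 340.4 and 508 CPM. Mutant replicate 2 lay within the control range. On the log2 scale the change was −0.99 ± 0.50 SE (edgeR adjusted p = 0.218), nearly that of Prss8 but with a larger error.

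Tmprss2 encodes a transmembrane protease known for cleaving viral surface proteins, and lies on chr16:97564682-97611195. Its values were 528, 153, 137 and 262 CPM for mutant replicates 1 to 4, against 447, 423 and 249.5 CPM for the controls. Mutant replicate 1 was above every control, mutant replicates 2 and 3 were below every control, and the log2 fold change was −0.47 ± 0.49 SE (edgeR adjusted p = 0.556).

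Prss22, a trypsin-like protease that can activate the urokinase zymogen, lies on chr17:23993534-23998100. It varied most among the mutants, with 18.4, 409, 248.5 and 142 CPM for replicates 1 to 4, while the controls held 230.3, 170.0 and 309 CPM. The highest mutant was 22.1-fold above the lowest, while the controls spread 1.81-fold. Mutant libraries are single mice and control libraries pools, so these spreads are not alike. Over all tested genes the median SD of the log2 level was 0.52 in mutants and 0.24 in controls. For Prss22 the SD of the log2 level among mutants (1.96) exceeded that of 95% of tested genes, and the mean change could not be told from 0 (log2 fold change −0.21 ± 0.80 SE, edgeR adjusted p = 0.885). Its sign turned with total count scaling (0.14), without mutant replicate 1 (0.22) and without control replicate 3 (0.05). The library lowest in Prss22 was also the one mutant whose summed gland markers, 13512 CPM, lay within the control range of 9844 to 50240 CPM. That sum was mostly Prss28, Prss29 and Spink1, while Foxa2 (9.7 CPM, controls 32.7 to 69.7) and Sox9 (307 CPM, controls 362 to 587) were below every control there. The part of these markers in the spread of Prss22 was not tested.

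Epcam encodes the antigen on which all cells were selected, and lies on the plus strand of chr17:87635979-87651129. Mutant replicates 1 to 4 showed 734, 743, 574 and 701 CPM, beside 893, 823 and 966 CPM for the controls. Every mutant was below every control, and the spread among mutants was small (SD of 0.17 on the log2 scale). A change of −0.38 ± 0.18 SE (log2) did not pass (edgeR adjusted p = 0.206), and it was −0.03 with total count scaling, under which the groups overlapped.

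Levels of different genes were compared per kilobase of exon. In controls the order was Epcam (407 ± 32.7 CPM per kilobase, SD, n = 3), Spint1 (199 ± 22.6), Prss22 (179 ± 52.5), Spint2 (173 ± 15.5), Tmprss4 (148 ± 43.0), St14 (137 ± 29.3), Prss8 (82.2 ± 16.6) and Tmprss2 (51.1 ± 14.8). Epcam stood above all others, Prss8 below St14 and Tmprss2 below Prss8 without overlap of libraries, while the 5 genes from Spint1 to St14 each overlapped their neighbour in the order. All 8 were abundant, since even Tmprss2 exceeded 92.8% of tested genes in controls. In mutants the order of means was Epcam (314 ± 35.7 CPM per kilobase, SD, n = 4), Prss22 (155 ± 125.1), Spint2 (109.6 ± 32.7), St14 (79.0 ± 23.3), Tmprss4 (74.1 ± 43.6), Spint1 (73.9 ± 23.4), Prss8 (39.0 ± 4.56) and Tmprss2 (37.0 ± 24.8). Spint1 thus stood second of the 8 in controls and sixth in mutants, where its libraries overlapped those of every other gene of the 8 except Epcam and Prss8.

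Ratios of levels per kilobase within a library do not depend on the scaling between libraries, and they are given as a description without a test. Spint1 per Spint2 came to 0.718, 0.489, 0.775 and 0.758 for mutant replicates 1 to 4, and to 1.20, 1.08 and 1.18 for the controls. Spint1 thus exceeded Spint2 in each control and stood below it in each mutant. Per Epcam, Spint1 was at 0.172 to 0.325 in mutants and 0.471 to 0.511 in controls, and Prss8 at 0.106 to 0.137 in mutants and 0.156 to 0.2545 in controls, both without overlap. The ratio of St14 to Epcam overlapped, at 0.173 to 0.330 in mutants and 0.2996 to 0.384 in controls.

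Protease to inhibitor ratios were split among the mutants. St14 per Spint1 was 0.531 in mutant replicate 1 but 1.92, 1.25 and 1.04 in mutant replicates 2 to 4, against 0.619 to 0.753 in controls. The 5 proteases together per both inhibitors together gave 1.03, 3.45, 2.66 and 1.79 for mutant replicates 1 to 4, with 1.5 to 1.74 among controls. In both ratios mutant replicate 1 lay below and the other 3 mutants above the control range. St14 per Spint2 overlapped, at 0.381 to 0.971 in mutants and 0.665 to 0.8905 in controls.

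**Figure D2:**
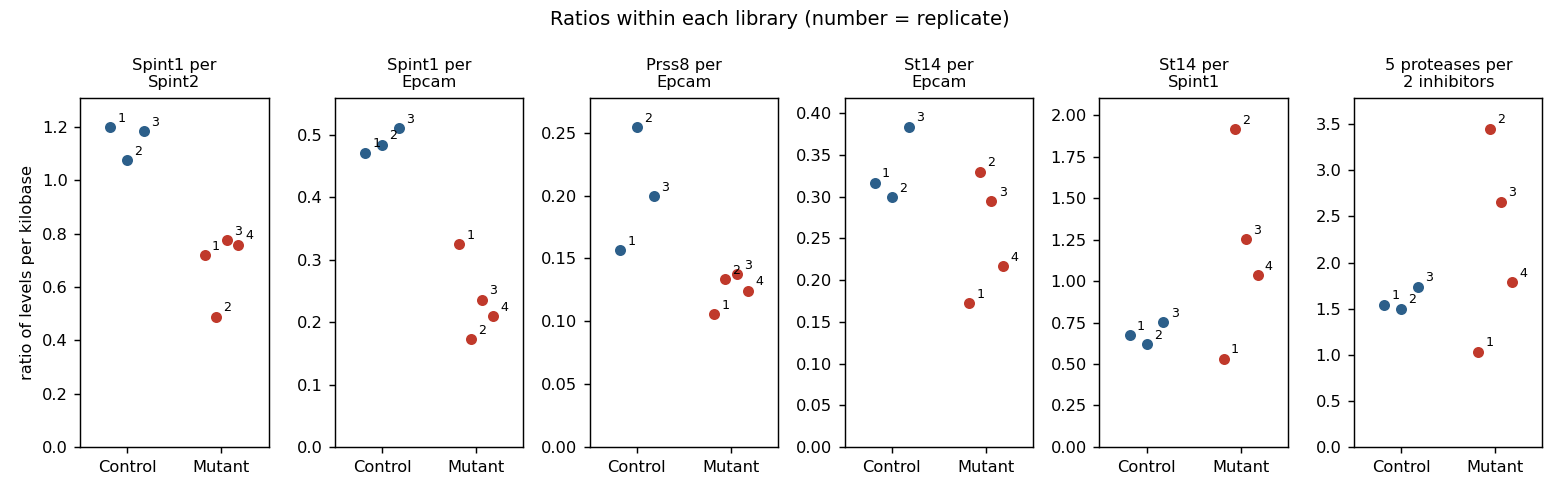
Ratios of levels per kilobase of exon within each library (vertical axes, linear, from 0) for controls (blue) and mutants (red), numbered by replicate. Spint1 per Spint2, Spint1 per Epcam and Prss8 per Epcam separate the groups, while in St14 per Spint1 mutant replicate 1, at 0.531, lies on the opposite side of the controls from the other mutants.

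The genes around the axis were followed in 6 lists. Calls without mutant replicate 1 are given beside the main ones; in that fit 29.5% of all tested genes were called, 14% lower and 15.5% higher, so more calls are found in any list. Among 16 other transmembrane serine proteases 8 were expressed enough to be tested, and 1 fell, with a list median of −1.47. It was Tmprss11g, of the HAT-like protease family, at 11.03, 13.6, 10.3 and 1.22 CPM for mutant replicates 1 to 4, against 108, 43.6 and 65.5 CPM for controls. All mutants were below all controls (log2 fold change −3.00 ± 0.70 SE, edgeR adjusted p = 0.0375). Its relative Tmprss11d did not pass (0.72, edgeR adjusted p = 0.749) and spread, like Prss22, with mutant replicate 1 lowest and mutant replicate 2 highest, at 1.02, 172, 70.1 and 6.46 CPM in replicates 1 to 4.

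Of 15 other Prss proteases 7 were tested and none passed (median −1.66). The most abundant, Prss29, an implantation protease of the uterine glands, was at 8563 CPM in mutant replicate 1, at 15.6 and 1.47 CPM in mutant replicates 2 and 3, without a read in mutant replicate 4, and at 6643 to 28447 CPM in controls (log2 fold change −2.82 ± 2.69 SE, edgeR adjusted p = 0.514). Without mutant replicate 1, 4 of the 7 (Prss12, Prss28, Prss29 and Prss32) were called lower, where 14% of all tested genes were. That library held nearly all mutant reads of Prss12, Prss28 and Prss29, and its removal for the lists was chosen after seeing the data. The count of 4 is therefore a description only. Of 12 other Kunitz, serpin and WAP-domain inhibitors 8 were tested and none passed (median −0.46), with or without mutant replicate 1. The most abundant, Wfdc2, had a value of 0.13 ± 0.24 SE (edgeR adjusted p = 0.753). The log2 fold change was below 0 for 5 of the 8, and only Slpi, 1 of the 8, was free of overlap between the groups. Over all tested genes 16.1% had mutants below controls without overlap, so this list did not stand out. Slpi lay at 2.11, 7.59, 3.57 and 30.5 CPM in mutant replicates 1 to 4 and at 47.85 to 52.7 CPM in the controls. It was not called (−2.18 ± 0.83 SE, edgeR adjusted p = 0.125).

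Among 12 substrates of these proteases and their receptors, 11 were tested, 2 fell and none rose (median −1.03). Plau, the urokinase gene whose zymogen matriptase can activate, lay at 34.7, 105, 142 and 147 CPM in mutant replicates 1 to 4 and at 901, 516 and 1079 CPM in the controls. The groups were far apart (log2 fold change −2.95 ± 0.51 SE, edgeR adjusted p = 0.0172). Cdcp1, a transmembrane glycoprotein cleaved by matriptase, lay at 141, 189.6, 177 and 233 CPM in mutant replicates 1 to 4 and at 509, 439.6 and 599 CPM in the controls. It also showed no overlap (−1.48 ± 0.22 SE, edgeR adjusted p = 0.0113). Plaur, the urokinase receptor, had a value of −1.03 (edgeR adjusted p = 0.0522) and passed without mutant replicate 1. The PAR2 gene F2rl1 (−0.82) and the sodium channel subunit genes Scnn1a (−1.52), Scnn1g (−2.48) and Scnn1b (0.44) did not pass (edgeR adjusted p = 0.114, 0.154, 0.0725 and 0.794).

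None of 9 partners and processing enzymes of EPCAM passed (median −0.42). The most abundant, the claudin gene Cldn7, was at 479, 669.5, 522 and 521 CPM in mutant replicates 1 to 4 and at 852, 710.1 and 1131 CPM in the controls. The groups did not overlap, without a call (−0.71 ± 0.23 SE, edgeR adjusted p = 0.0843). Without mutant replicate 1, Adam17, a sheddase of EPCAM, was called higher and Psen2 and Fhl2 lower, 3 of 9 genes where 29.5% of all tested genes were called, a share near that background.

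Of 3 grainyhead transcription factor genes, known as regulators of epithelial genes, Grhl2 rose. It was at 132, 127, 108 and 107 CPM in mutant replicates 1 to 4 and at 62.0, 83.7 and 59.1 CPM in the controls. Every mutant lay above every control (log2 fold change 0.80 ± 0.19 SE, edgeR adjusted p = 0.0406). Grhl1 had a value of −1.34 (edgeR adjusted p = 0.0575) and was called lower without mutant replicate 1 (−1.46, edgeR adjusted p = 0.0282), and Grhl3 of −1.50 (edgeR adjusted p = 0.395). Of the 7 removals of a library, Grhl2 kept its call only in that of mutant replicate 1 (edgeR adjusted p = 0.0754, 0.0704 and 0.062 without mutant replicates 2, 3 and 4), and it also lost the call without the filter on low counts (0.0984), and Tmprss11g lost it without mutant replicates 2 and 3 (0.0584 and 0.0851). Plau, Cdcp1, Tmprss11g and Grhl2 lost their calls when any control library was removed, with adjusted p of 0.0767, 0.0539 and 0.0826 for Plau without control replicates 1, 2 and 3, of 0.0673, 0.0533 and 0.0696 for Cdcp1, of 0.144, 0.0948 and 0.118 for Tmprss11g, and of 0.173, 0.0755 and 0.157 for Grhl2 (edgeR).

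**Figure D3:**
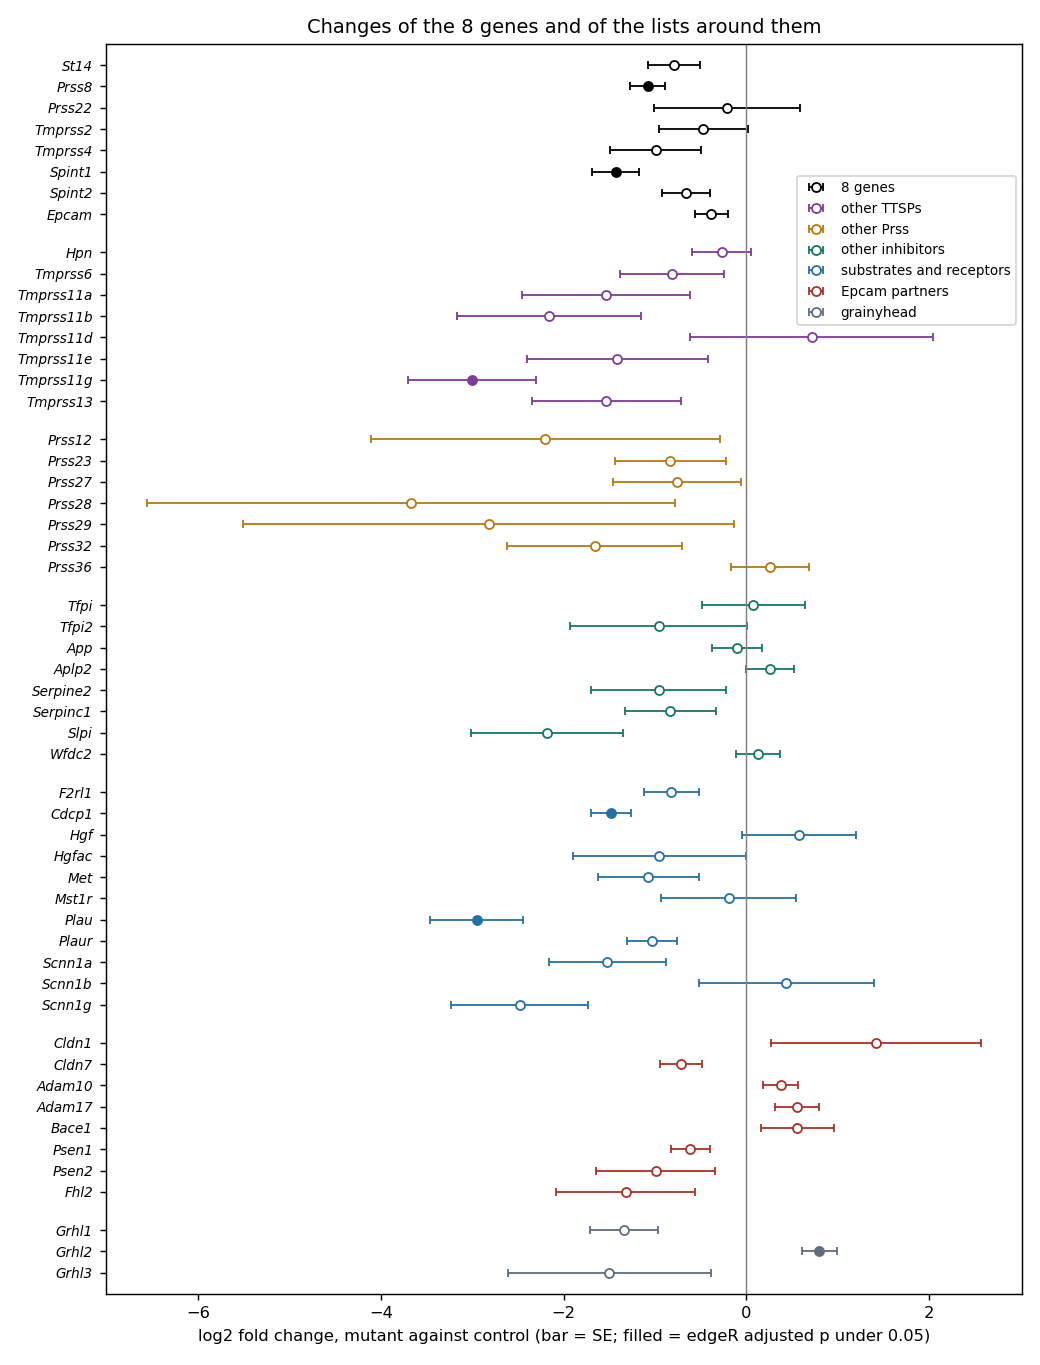
The log2 fold change of mutant against control (horizontal axis) with its SE for the 8 genes and the tested genes of the 6 lists except 1 that is not shown, where TTSPs are type II transmembrane serine proteases and filled points passed the edgeR test. Spint1 (−1.43) and Prss8 (−1.08) are filled among the 8, and Plau, Cdcp1, Tmprss11g and Grhl2 among the others, with Grhl2 alone to the right of 0.

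**Figure D4:**
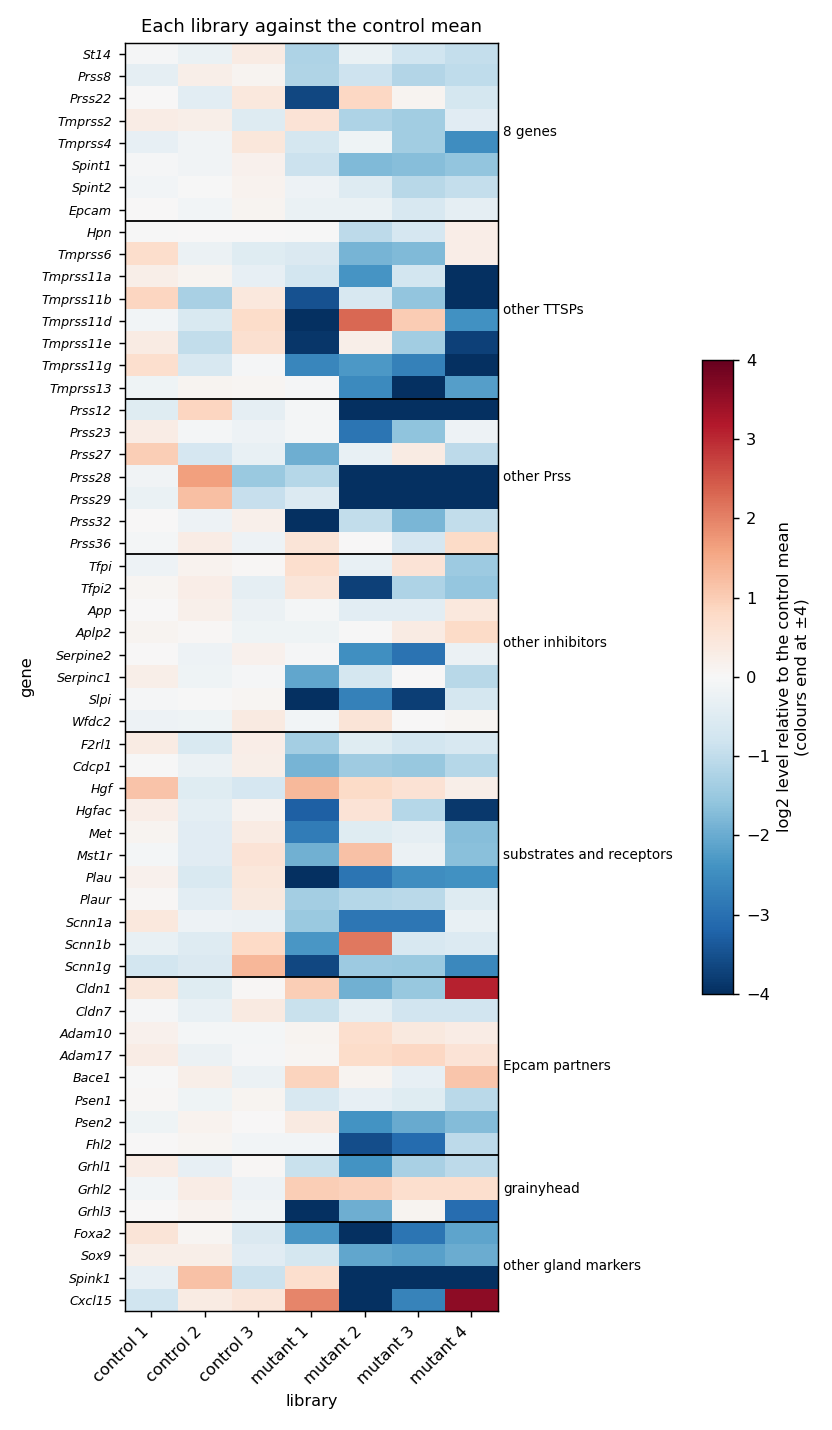
Each library (columns) as the log2 difference from the control mean (colour) for the 8 genes, the 6 lists except 1 gene that is not shown, and gland markers (rows). Spint1 and Prss8 are blue in all 4 mutants, Prss22 and Tmprss11d differ in sign between mutant replicates 1 and 2, and Prss28, Prss29 and Spink1 are far below the controls in mutant replicates 2 to 4 only.

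The cells showed the markers of epithelium in each library, with a summed level of 7 epithelial markers of 7316 to 10412 CPM for mutants and 15595 to 19241 CPM for controls. Of these, Cdh1 (−0.91 ± 0.20 SE, edgeR adjusted p = 0.0307) and Krt8 (−1.02 ± 0.25 SE, edgeR adjusted p = 0.0421; related sequences make its counts uncertain) fell. Of the 7 removals of a library both kept their call only without mutant replicate 1, and over the other 6 the edgeR adjusted p was 0.054 to 0.136 for Cdh1 and 0.081 to 0.165 for Krt8. Cdh1 also lost its call with total count scaling (edgeR adjusted p = 0.0859) and without the filter on low counts (0.0513), and Krt8 with upper-quartile scaling (0.053), total count scaling (0.0654) and no filter (0.0536). Summed markers of stromal fibroblasts (6 genes) were at 162 to 470.1 CPM (mutants) and 536 to 687 CPM (controls), of mesothelium (3 genes) at 7.74 to 28.9 and 33.4 to 48.9 CPM, of smooth muscle (5 genes) at 7.52 to 74.2 and 66.2 to 106 CPM, and of endothelium (5 genes) at 4.68 to 22.2 and 19.7 to 24.8 CPM. Immune markers (6 genes) were at 269 to 336 CPM in controls, and mutants lay on both sides of that range, with 1 library below it and up to 414 CPM, and mast cell markers (5 genes) at 43.1 to 949 and 264 to 323 CPM. Of these 30 non-epithelial markers 1 fell, the fibroblast gene Dcn (−1.77 ± 0.24 SE, edgeR adjusted p = 0.00888; 0.0612, 0.0545 and 0.0358 without control replicates 1, 2 and 3). Without mutant replicate 1, 6 of the 30 were called lower, namely Dcn, the smooth muscle genes Acta2, Myh11, Tagln and Des, and the T cell gene Cd3e, beside 14% of all tested genes. Of the 6 gland markers, Foxa2 (−2.81) and Sox9 (−1.63) fell (edgeR adjusted p = 0.0270 and 0.0461), where 6.18% of all tested genes did. Prss28 (−3.67), Prss29 (−2.82) and Spink1 (−1.61) lay lower without a call. Cxcl15 went the other way without a call (1.92 ± 1.69 SE, edgeR adjusted p = 0.477). It was at 29.0, 0, 1.05 and 89.4 CPM in mutant replicates 1 to 4 and at 4.17 to 10.3 CPM in controls. Foxa2 and Sox9 both lost the call without control replicates 1, 2 and 3 (edgeR adjusted p = 0.120, 0.0988 and 0.0847 for Foxa2 and 0.168, 0.158 and 0.112 for Sox9). Foxa2 also lost it without mutant replicate 3 (0.0691) and Sox9 without mutant replicates 2, 3 and 4 (0.0877, 0.104 and 0.100). Under total count scaling Sox9 had an edgeR adjusted p of 0.051, and under upper-quartile scaling one of 0.0525. Markers without a read were Cd3e in mutant replicate 1, Cxcl15 in mutant replicate 2, Prss28 and Spink1 in mutant replicate 3 and Prss29 in mutant replicate 4. The part of these marker differences in the changes of Spint1 and Prss8 was not tested.

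For 4 of the 8 genes, the tested genes with a mean of at least 10 CPM whose log2 levels followed them most closely over the 7 libraries were picked by Pearson correlation from 9121 genes. Closest to Spint1 were Pum2 (0.997), Samd4b (0.996) and Mad2l1bp (0.993), and among the closest to Prss8 were Rab3gap2 (0.991) and Gm23935 (0.983). Closest to St14 were Ifi202b (0.991), Uap1l1 (0.988) and Nfkbia (0.984), and closest to Epcam were Sgsm3 (0.979), Pcif1 (0.978) and Tmem160 (0.976). Among the 8 genes themselves the correlation was 0.89 for Spint1 with Spint2, 0.90 for Spint2 with Epcam and −0.65 for Prss22 with Tmprss2. These values are descriptions over 7 libraries that share the difference between the genotypes.

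**Figure D5:**
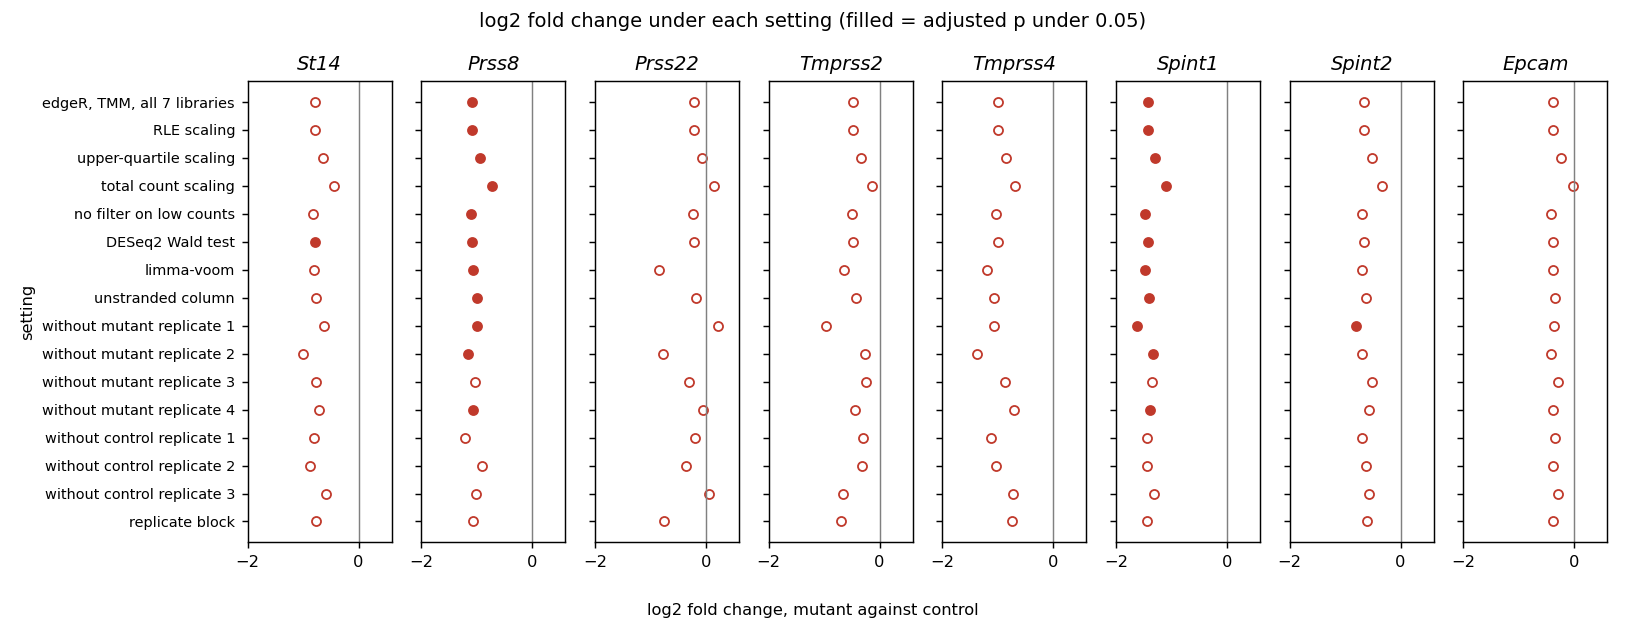
The log2 fold change of each of the 8 genes (horizontal axes) under each setting (rows), filled where the adjusted p was under 0.05. Spint1 and Prss8 stay left of 0 in each setting and lose the call in the same 5 settings, St14 is filled with DESeq2 only, and Spint2 without mutant replicate 1 only.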

How the data were processed

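The authors deposited raw gene counts from STAR, whole numbers of reads, for all 7 libraries. The submitters' processing notes name the genome mm10 and, with no version, cutadapt, Trim Galore, FastQC, STAR and DESeq2. A further table deposited by the authors gives log2 fold changes, standard errors and adjusted p-values of their own comparison, and a mean of normalized counts (a signal deposited by the authors, not used). Libraries were directional, per the labels' protocols, and the reverse-stranded counts were used, since they held 94.8% to 95.6% of both stranded columns.

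Of 53379 gene IDs, 53274 matched GENCODE M21 (GRCm38) without the version, and symbols, coordinates and exon lengths come from it. Of the 8 genes, St14 shares 0.344% of its 50-base words with other genes and the others none. Promoter sequences are from a table made from RefSeq (GRCm38.p6), in which 4 of the 8 genes were matched.

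Genes kept by filterByExpr were tested in R 4.3.3 with the edgeR 4.0.16 quasi-likelihood F test (TMM, genotype as the only term, two-sided, Benjamini-Hochberg over 14610 genes, threshold 0.05). The procedure was tested on simulated data, where it missed most changes of the smaller sizes, so a gene that did not pass can still differ. Alternatives were DESeq2 1.42.0, limma 3.58.1 (voom), other scalings, no filter, the unstranded column, each library left out and a replicate block. Correlations used log2 CPM with a prior count of 2. At 3 reads the floor is 0.224 to 0.241 reads per 1000000 gene reads in mutants and 0.116 to 0.140 in controls, for counting error only. P-values reflect the variation among single mice and among pools.

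The 8 genes, lists and tests were chosen with earlier results of these data known. Named were the 8 genes, Smarca4, Ltf, of each list up to 4 genes past the threshold or, where none passed, the most abundant per kilobase, and the 3 most correlated genes of 4 members. Genes outside this rule (Tmprss11d, Slpi, Plaur, F2rl1, the sodium channel subunits, Grhl1, Grhl3, the gland and mast cell markers given without a call and those called only without mutant replicate 1) were chosen after their values were seen. Some results under these rules are not reported here.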

Additional observations from a re-analysis of the deposited data

Results flagged for a closer look

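The level of each named gene and of each tested gene of the lists and markers, and each ratio, 112 values in all, was examined within the 4 mutant libraries by the gap of the outermost library over the whole range, set against Dixon's critical value for 4 samples. For normally distributed values chance flags about 5% of groups (1 in 20), and 14 of the 112 passed. The values were taken on the linear scale, on which a high library stands out more than on the log2 scale. The 14 can therefore not be set against that 5%. Genes of 1 list share libraries and are not independent. Mutant replicate 1 was the high library for 9 of the 14. Among the 8 genes this was Spint1, with a ratio of 0.8297, barely over the limit, at 301 CPM against 162 to 185 CPM in the other mutants. The other 8 with mutant replicate 1 high were Prss28 (0.9997), Spink1 (0.9996), Prss29 (0.998), Prss12 (0.988), Sox9 (0.925), Psen2 (0.8965), Kit (0.8696) and Myh11 (0.8335). For Prss29 that library had 8563 CPM and the others at most 15.6 CPM, for Psen2 85.9 CPM and 12.7 to 20.2 CPM, and for Kit 739 CPM and 6.21 to 102 CPM. Mutant replicate 2 was the high library for Scnn1b (0.883). Mutant replicate 3 was high for the collagen genes Col1a1 (0.888) and Col1a2 (0.8359) and for Cd3e (0.878), and mutant replicate 4 for Msln (0.932).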

How the results depend on the processing

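Spint1 and Prss8 fell in 10 of 15 alternatives each and kept their sign in all 15. With the replicate number as a block, no gene of the 8 passed (0 lower), with Spint1 at −1.44 and Prss8 at −1.07 (edgeR adjusted p = 0.146 for both), and 2 genes in all passed. The labels state no pairing by number, and mutants and controls were prepared as separate library sets. The deviations of same-numbered libraries correlated at −0.02, −0.362 and 0.155. Mutant replicate 1 and control replicate 2 reached 0.35, so such values cannot settle a pairing. Over the 7 removals of a library, the log2 fold change ran from −1.63 to −1.31 for Spint1, −1.21 to −0.91 for Prss8, −0.81 to −0.52 for Spint2 and −0.78 to 0.22 for Prss22, and the number of the 8 genes that fell from 0 to 3. St14 passed with DESeq2 only (−0.79), Spint2 without mutant replicate 1 only, and Prss22 turned positive with total count scaling (0.14). None of the 8 rose in any alternative. The count of all changed genes was 1687, ranged from 133 to 4403 over the removals, and was 2734 with total count scaling (80.5% of them higher, against 46.5%; 62.6% with upper-quartile scaling), 1057 without the filter (33.6% higher) and 3423 with DESeq2. Counting error is small here, since the 8 genes had 235 reads or more in every library; 7 libraries limit the precision. The lists were also counted without mutant replicate 1, an alternative chosen after seeing the data.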
